A study of Mus musculus with 92 samples.

Results

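Polyadenylated RNA was compared between mouse embryonic stem cells treated for 12 h to degrade GABPB1 and GABPB2 and their vehicle controls, over all genes. The members are the 4 RNA-seq libraries of 92 samples in the series that the labels give to the GABPB1/GABPB2 degron line. Of these, 2 are from cells treated with 500 nM dTAG-13 for 12 h and 2 from cells treated with DMSO for 12 h. All 4 libraries are from B6 mouse embryonic stem cells of the genotype Gabpb1/b2 dTAG/dTAG, in which both genes carry a degron tag on both alleles. dTAG-13 is a small molecule that binds the tag and recruits a ubiquitin ligase, so that the tagged protein is degraded while its mRNA can still be made. Protein levels were not analysed here. The control cells carry the same tags, so any effect of the tags themselves is shared by both groups. None of the 12 RNA-seq libraries is from untagged cells given dTAG-13. An effect of the compound itself therefore cannot be told apart from loss of the tagged proteins. Cells of every group grew in serum with leukaemia inhibitory factor (LIF), the MEK inhibitor PD0325901 and the GSK3 inhibitor CHIR99021. The sources used here do not say whether a line is 1 clone. For comparison, the same treatments were read in a line with the tag on GABPB1 alone (Gabpb1 dTAG/dTAG) and in a line with the tag on GABPA (Gabpa dTAG/dTAG), each with 2 dTAG-13 and 2 DMSO libraries at 12 h.

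GABP is a transcription factor of the ETS family. Its GABPA subunit binds DNA at sites with a GGAA core, and its GABPB subunits do not bind DNA themselves but attach to GABPA through ankyrin repeats and carry the activation and nuclear localisation regions. GABPB1 and GABPB2 are products of separate genes that take the same place in the complex. GABP, also called nuclear respiratory factor 2, is known for binding near the start sites of housekeeping genes, among them genes for mitochondrial proteins, ribosome assembly and the cell cycle.

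The 2 dTAG-13 libraries held 19.4 and 16.0 M expected counts and the 2 DMSO libraries 26.4 and 19.5 M, within the 16.0 to 32.1 M of the 12 RNA-seq libraries. DMSO replicate 1 stood apart from the other 3 libraries of the line in fragment length. Its fragments were shorter: the median difference between a gene's length and its effective length, which approximates the mean fragment length, was 230 bases in DMSO replicate 1, against 267 bases in DMSO replicate 2, 259 bases in dTAG-13 replicate 1 and 264 bases in dTAG-13 replicate 2. Over 9711 genes, the log2 ratio between the 2 DMSO libraries had an SD of 0.213, and that between the 2 dTAG-13 libraries an SD of 0.128. An SD of a pair cannot say which library is apart. The root mean square log2 difference from the dTAG-13 libraries was 0.338 and 0.343 for DMSO replicate 1. For DMSO replicate 2 it was 0.334 and 0.329. The log2 fold changes between the groups had an SD of 0.365 over the same genes. Some of the counts below are given with and without DMSO replicate 1, and its part in the results was not otherwise tested. The 8 embryonic stem cell markers examined, among them Pou5f1, Sox2 and Nanog, summed to 4460 and 4380 CPM (counts scaled to a common library size) in dTAG-13 libraries, against 4520 and 4430 CPM in DMSO libraries, and each of the 8 was detected in every library. The 8 feeder fibroblast markers summed to 8.72 and 9.46 CPM in dTAG-13 libraries, against 12.1 and 9.56 CPM in DMSO libraries, with Col3a1 and Lum at 0 in all 4. The 9 markers of differentiated lineages summed to 32.4 and 27.7 CPM in dTAG-13 libraries, against 34.3 and 30.8 CPM in DMSO libraries. In bulk RNA, fewer cells of a type and less RNA per cell cannot be told apart.

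Messenger RNAs of all 3 GABP subunits were more abundant after dTAG-13 than after DMSO. Changes are given as log2 fold changes of dTAG-13 over DMSO with their standard error, from edgeR's quasi-likelihood test over all 16396 genes tested, and a gene is said to rise or fall where its Benjamini-Hochberg adjusted p was under 0.05. Gabpb1, one of the tagged genes, had 64.4 and 62.2 CPM in dTAG-13 libraries, against 30.6 and 36.8 CPM in DMSO libraries (log2 fold change 0.92 ± 0.103, adjusted p = 8.32e-06). Gabpa, which encodes the DNA-binding partner, had 223 and 239 CPM in dTAG-13 libraries, against 144 and 161 CPM in DMSO libraries (log2 fold change 0.60 ± 0.0686, adjusted p = 1.01e-05). Gabpb2, the other tagged gene, had 63 and 58.8 CPM in dTAG-13 libraries, against 44.9 and 49.7 CPM in DMSO libraries (log2 fold change 0.37 ± 0.0755, adjusted p = 0.00302). Both dTAG-13 libraries lay above both DMSO libraries for each of the 3, although the call of Gabpb2 was lost without dTAG-13 replicate 1. Per length, Gabpa was the most abundant of the 3, with 104 and 105 TPM (the authors' length-corrected unit) in dTAG-13 libraries and 58.9 and 63.9 TPM in DMSO libraries, while Gabpb2 was the least abundant, with 12.8 and 12.0 TPM in dTAG-13 libraries and 9.5 and 10.3 TPM in DMSO libraries. The same 3 mRNAs rose in the GABPA line, by log2 fold changes of 0.50 for Gabpa, 1.62 for Gabpb1 and 0.85 for Gabpb2. In the GABPB1 line Gabpa and Gabpb1 rose by 0.38 and 0.74, and Gabpb2 had a log2 fold change of 0.16 (adjusted p = 0.216). The level of Gabpb2 in DMSO libraries was 44.9 and 49.7 CPM in the GABPB1/GABPB2 line, 89.4 and 93.2 CPM in the GABPB1 line and 86.0 and 82.8 CPM in the GABPA line. Both libraries of the line with tagged GABPB2 thus lay below all 4 of the others. Gabpa likewise had 48.9 and 46.4 CPM in DMSO libraries of the GABPA line, against 142 to 161 CPM in those of the other lines. Gabpb1 had 30.6 to 36.8 CPM in DMSO libraries of the lines with tagged GABPB1, against 52.5 and 41.3 CPM in the GABPA line. Because a degron removes protein and leaves the mRNA, these values do not check the labels. Each of the 3 genes overlaps another annotated gene, Gabpa on the opposite strand of Atp5j, and the sources used here do not say how reads were assigned by strand.

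After 12 h of dTAG-13 in the GABPB1/GABPB2 line, more mRNAs had fallen than had risen. Of the 16396 genes tested, 1519 fell, or 9.26%, and 578 rose, or 3.53%, so that 72.4% of the calls were falls. The falls were also larger, with a median log2 fold change of -0.60 (quartiles -0.93 and -0.38), and 351 genes fell by over 2-fold. The rises had a median log2 fold change of 0.41 (quartiles 0.31 and 0.58), and 37 genes rose by over 2-fold. These 37 genes were mostly low in level, with a median of 0.418 CPM in DMSO libraries. That median was 20.5 CPM for all rises and 10.3 CPM for falls over 2-fold. The median over all genes tested was 0.01. In 2092 of the 2097 called genes the values of the dTAG-13 and DMSO libraries did not overlap, and the 5 exceptions were Lars2, Rps12-ps3, Gm10222, Zfp968 and Gm28778. The groups also did not overlap in 8121 of all 16396 genes tested and in 6029 of the 14299 not called. With 2 libraries a group, a lack of overlap is therefore common and adds little to a call. When DMSO replicate 1 was left out, 1455 genes fell and 626 rose, and these included 1209 of the 1519 falls and 313 of the 578 rises. The number of rises depended more on the fit: with the 4 libraries of the line alone 222 genes rose and 1089 fell, and 192 genes rose and 970 fell without dTAG-13 replicate 1. The labels call the samples of a condition biological duplicates. In the fit of all 12 libraries, the p-values rest on a spread pooled over the groups, not on this line's pairs alone. The DMSO libraries of this line differed more than the pairs of the other groups. Their median absolute log2 difference was 0.177, against 0.109 in this line's dTAG-13 libraries and 0.0821 to 0.161 in groups of the other lines. The pooled spread can therefore be smaller than that of these controls. With 2 libraries a group, the p-values cover only the spread between such samples.

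**Figure D1:**
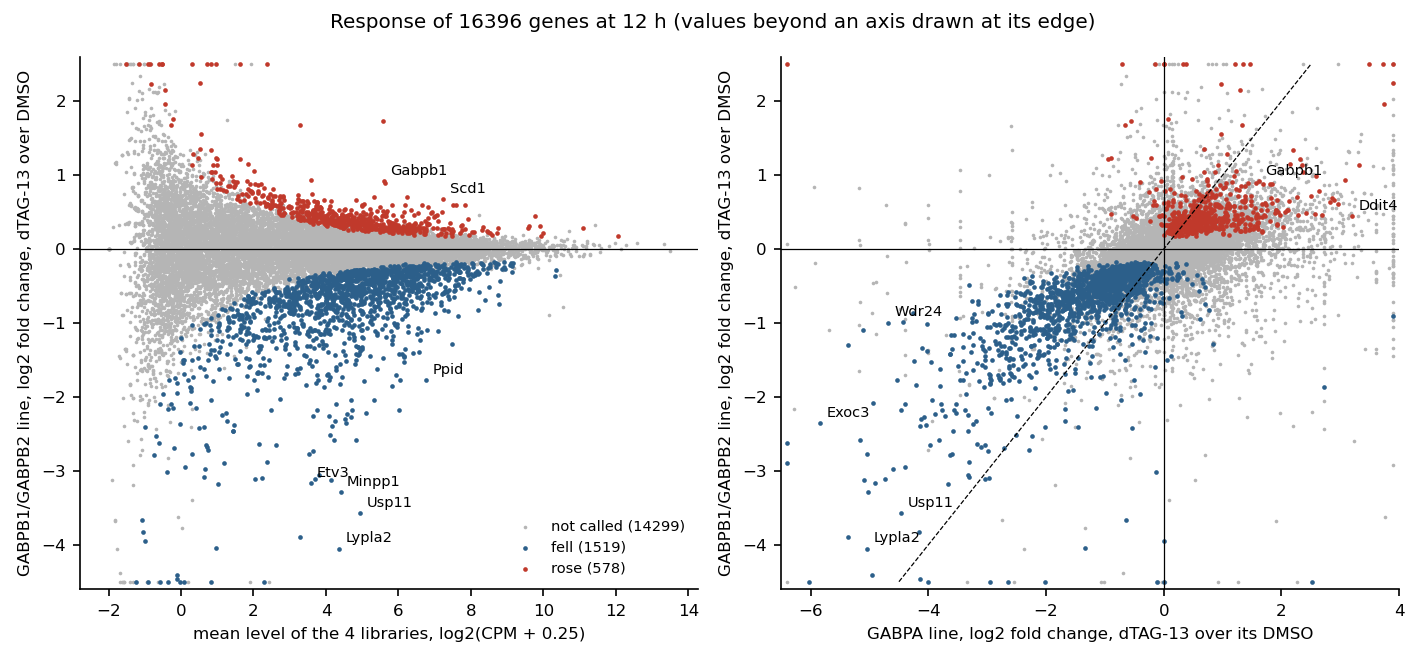
Left: log2 fold change of dTAG-13 over DMSO in the GABPB1/GABPB2 line (vertical axis) against mean level as log2(CPM + 0.25) for each gene tested, coloured by call: 1519 fell, 578 rose and 14299 were not called. Right: the same log2 fold change against that in the GABPA line, with a dashed line where both are equal. Values beyond an axis are drawn at its edge, and most genes that fell lie above the dashed line, nearer to 0 than in the GABPA line.

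The 24 largest falls described here belonged to varied cell functions. They were taken from called genes with a mean log2 CPM of at least 3 in either group and no overlap between the groups. That both dTAG-13 libraries lay below both DMSO libraries in each was therefore set by this choice. Lypla2 (mm39 chr4:135695535-135699937, minus strand), which encodes a thioesterase that removes palmitate from proteins, had 1.96 and 2.75 CPM in dTAG-13 libraries, against 43.7 and 33.3 CPM in DMSO libraries (log2 fold change -4.05 ± 0.171, adjusted p = 8.21e-11). Usp11 (chrX:20570145-20586778, plus strand), a ubiquitin-specific protease, had 4.57 and 4.97 CPM in dTAG-13 libraries, against 56.3 and 56.8 CPM in DMSO libraries (log2 fold change -3.57 ± 0.105, adjusted p = 2.49e-12). Minpp1 (chr19:32463169-32492764, plus strand), a phosphatase that acts on inositol phosphates, had 4.47 and 3.23 CPM in dTAG-13 libraries, against 38.9 and 37.6 CPM in DMSO libraries (log2 fold change -3.29 ± 0.127, adjusted p = 3.97e-11). For these 3 genes the groups lay far apart beside the spread within each group, which was smallest in Usp11. Etv3 (chr3:87432714-87447463, plus strand), itself an ETS family repressor, had 2.21 and 2.51 CPM in dTAG-13 libraries, against 20.8 and 21.4 CPM in DMSO libraries (log2 fold change -3.16 ± 0.168, adjusted p = 1.02e-09). Exosc3 (chr4:45316613-45342732, minus strand), a cap subunit of the RNA exosome, had 3.73 and 3.41 CPM in dTAG-13 libraries, against 33 and 29.4 CPM in DMSO libraries (log2 fold change -3.12 ± 0.112, adjusted p = 2.13e-11), and it overlaps Dcaf10 on the other strand. Kti12 (chr4:108704982-108706610, plus strand), a partner of the Elongator complex that modifies tRNA wobble bases, had 2.55 and 2.75 CPM in dTAG-13 libraries, against 23.4 and 22.3 CPM in DMSO libraries (log2 fold change -3.11 ± 0.124, adjusted p = 4.77e-11), and it lies within the span of Txndc12 on the same strand. The lack of overlap in these 3 was likewise set by the choice.

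Other large falls concerned vesicle tethering, protein modification and organelles. Exoc3l, an exocyst-related gene, had 0.638 and 1.26 CPM in dTAG-13 libraries, against 7.33 and 8.6 CPM in DMSO libraries, from 34 counts in both dTAG-13 libraries together and 375 counts in both DMSO libraries together (log2 fold change -3.10 ± 0.214). The exocyst subunit gene Exoc3 had 6.92 and 8.32 CPM in dTAG-13 libraries, against 36.3 and 41.4 CPM in DMSO libraries (log2 fold change -2.35 ± 0.107). Nfs1, the cysteine desulfurase that supplies sulfur for iron-sulfur clusters, had 5.4 and 5.99 CPM in dTAG-13 libraries, against 28.5 and 31.1 CPM in DMSO libraries (log2 fold change -2.39 ± 0.119). These 3 genes, like the rest of this group, were chosen without overlap between dTAG-13 and DMSO libraries. Pex6, an ATPase of peroxisome biogenesis, had 7.96 and 8.32 CPM in dTAG-13 libraries, against 54.8 and 41.7 CPM in DMSO libraries (log2 fold change -2.58 ± 0.132). Mogs, the glucosidase that starts the trimming of N-glycans in the endoplasmic reticulum, had 7.42 and 8.2 CPM in dTAG-13 libraries, against 43.2 and 32.7 CPM in DMSO libraries (log2 fold change -2.29 ± 0.127). Prkab1, a regulatory subunit of the energy sensor AMP-activated protein kinase, had 9.67 and 7.9 CPM in dTAG-13 libraries, against 42.7 and 43 CPM in DMSO libraries (log2 fold change -2.28 ± 0.0976). Pex6, Mogs and Prkab1 were chosen in the same way. Itpa, which removes non-canonical purine nucleotides, had 11.4 and 12.6 CPM in dTAG-13 libraries, against 54.5 and 57.4 CPM in DMSO libraries (log2 fold change -2.22 ± 0.101). The remaining genes of this group were Tmem184c, Zfp623, Rps6kc1, Ccdc137, Spopl, Myg1, Rabep2, Rinl, Mrpl27, Tro and Ngrn, with log2 fold changes between -3.06 in Tmem184c and -2.24 in Ngrn. Nfs1, Mrpl27 and Rabep2 overlap Romo1, Eme1 and Atp2a1 on the other strand, so that their counts may include reads of these genes.

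**Figure D2:**
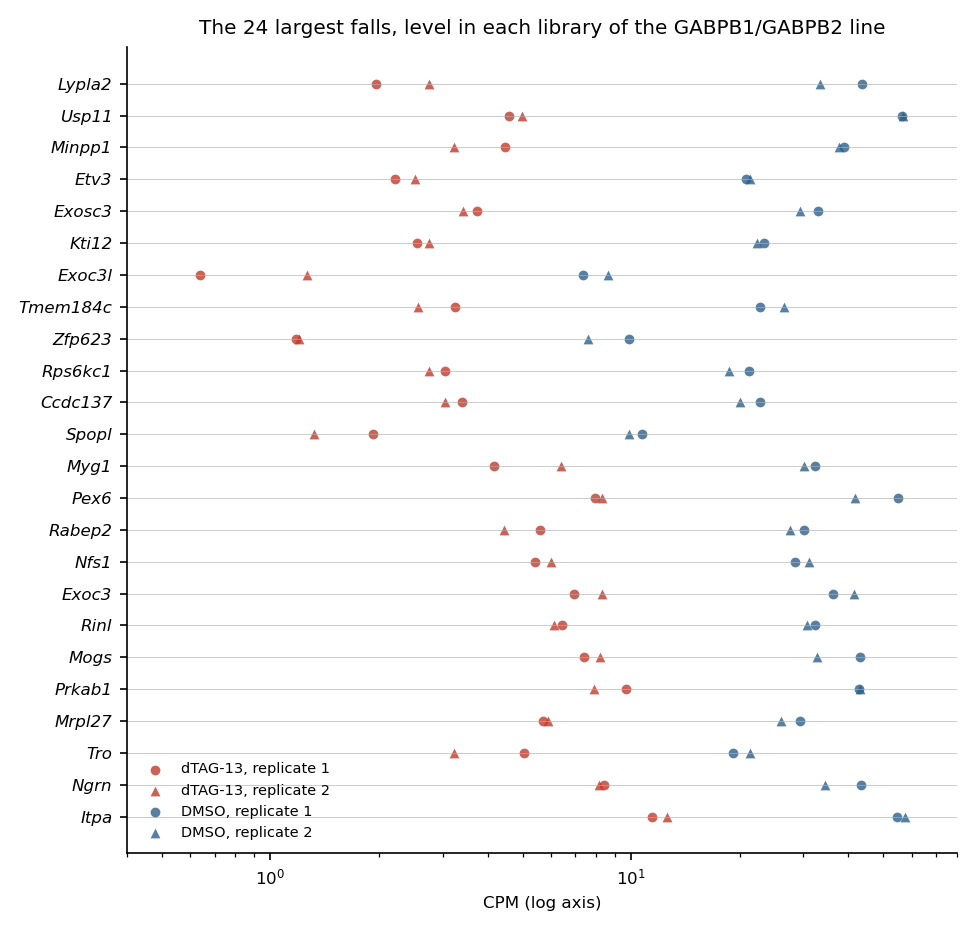
CPM of the 24 largest falls in each of the 2 dTAG-13 and 2 DMSO libraries of the GABPB1/GABPB2 line, on a log axis, ordered by fold change. Each point is 1 library. The genes were chosen without overlap between the groups, so in every gene both dTAG-13 points lie below both DMSO points. Values run from Lypla2 at 1.96 and 2.75 against 43.7 and 33.3 CPM to Itpa at 11.4 and 12.6 against 54.5 and 57.4 CPM.

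Promoter sequences of the 6 largest falls and of the 2 largest rises that could be printed are shown because the data bear on them through the GGAA-core sites that GABPA binds. Each is the RefSeq window of 300 bases, from 250 before to 50 after an annotated start, in GRCm38.p6 coordinates and written 5′ to 3′ on the gene's strand. Capitals mark CCGGAAG or its reverse complement CTTCCGG.
Lypla2, chr4:135972545-135972844, minus strand: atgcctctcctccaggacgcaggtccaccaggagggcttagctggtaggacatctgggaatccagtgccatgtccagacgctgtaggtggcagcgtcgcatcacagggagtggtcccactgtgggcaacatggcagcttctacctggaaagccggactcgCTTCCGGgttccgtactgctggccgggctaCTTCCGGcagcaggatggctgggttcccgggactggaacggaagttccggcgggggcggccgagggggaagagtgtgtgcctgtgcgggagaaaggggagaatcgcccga
Usp11, chrX:20703659-20703958, plus strand: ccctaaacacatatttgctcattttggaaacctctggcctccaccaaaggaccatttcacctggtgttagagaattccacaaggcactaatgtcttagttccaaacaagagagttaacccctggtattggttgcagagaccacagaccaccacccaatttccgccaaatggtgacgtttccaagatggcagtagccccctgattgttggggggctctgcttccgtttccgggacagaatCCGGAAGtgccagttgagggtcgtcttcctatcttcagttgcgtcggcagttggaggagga
Minpp1, chr19:32485519-32485818, plus strand: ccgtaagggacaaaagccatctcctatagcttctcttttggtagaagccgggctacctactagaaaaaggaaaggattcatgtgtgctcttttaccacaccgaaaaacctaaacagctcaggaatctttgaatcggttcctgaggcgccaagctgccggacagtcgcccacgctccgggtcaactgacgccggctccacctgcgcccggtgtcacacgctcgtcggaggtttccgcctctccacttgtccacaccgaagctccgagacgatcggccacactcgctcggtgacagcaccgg
Etv3, chr3:87525328-87525627, plus strand: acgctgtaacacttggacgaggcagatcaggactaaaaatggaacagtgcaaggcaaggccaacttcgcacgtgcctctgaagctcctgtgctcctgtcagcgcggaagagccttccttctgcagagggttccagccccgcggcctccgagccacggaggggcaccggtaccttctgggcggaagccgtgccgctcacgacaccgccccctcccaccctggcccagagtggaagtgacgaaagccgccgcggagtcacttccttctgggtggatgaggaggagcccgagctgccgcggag
Exosc3, chr4:45320567-45320866, minus strand: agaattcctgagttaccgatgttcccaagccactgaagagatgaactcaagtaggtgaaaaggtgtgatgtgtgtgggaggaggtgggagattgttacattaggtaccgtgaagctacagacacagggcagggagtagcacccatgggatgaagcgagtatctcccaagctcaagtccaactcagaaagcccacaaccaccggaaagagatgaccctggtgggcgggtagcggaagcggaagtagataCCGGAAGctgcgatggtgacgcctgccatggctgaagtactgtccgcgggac
Kti12, chr4:108847607-108847906, plus strand: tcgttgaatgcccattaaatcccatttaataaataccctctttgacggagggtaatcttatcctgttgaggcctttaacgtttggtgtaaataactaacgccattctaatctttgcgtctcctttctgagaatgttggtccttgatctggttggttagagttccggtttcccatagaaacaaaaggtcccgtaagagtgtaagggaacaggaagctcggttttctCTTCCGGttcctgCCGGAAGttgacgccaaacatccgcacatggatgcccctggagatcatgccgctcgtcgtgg
Gabpb1, chr2:126675303-126675602, minus strand: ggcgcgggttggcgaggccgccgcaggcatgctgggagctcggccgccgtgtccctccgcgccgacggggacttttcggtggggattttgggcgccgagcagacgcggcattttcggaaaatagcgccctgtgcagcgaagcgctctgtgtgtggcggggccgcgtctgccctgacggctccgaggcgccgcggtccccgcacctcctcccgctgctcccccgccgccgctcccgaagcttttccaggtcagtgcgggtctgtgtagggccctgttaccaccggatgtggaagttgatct
Chmp2a, chr7:13034728-13035027, minus strand: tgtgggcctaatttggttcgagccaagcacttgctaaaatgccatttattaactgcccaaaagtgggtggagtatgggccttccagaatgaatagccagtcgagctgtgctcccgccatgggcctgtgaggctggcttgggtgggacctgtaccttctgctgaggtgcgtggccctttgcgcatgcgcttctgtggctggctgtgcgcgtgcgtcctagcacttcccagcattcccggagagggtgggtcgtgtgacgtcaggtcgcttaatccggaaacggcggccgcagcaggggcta
In the Lypla2 window the letters occur 2 times, starting 90 and 60 bases before the annotated start, and in the Kti12 window they occur 25 and 12 bases before it. Usp11 holds 1 match, 11 bases before the start, and Exosc3 holds 1, 2 bases before it. The windows of Minpp1, Etv3, Gabpb1 and Chmp2a hold no match. The Gabpb1 window is 1 of 2 in the table. A match is a run of letters and no measure of binding.

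Genes that fell held the GABP-like letters more often than other genes did. Windows were matched by symbol for 11314 of the 16082 tested genes whose symbol named 1 ID, and CCGGAAG was searched on both strands, in the window with the most matches where a gene had several. It was present in 589 of 1162 genes that fell, or 50.7%, and in 131 of 245 genes that fell over 2-fold, or 53.5%. Of the genes that fell over 4-fold it was present in 26 of 57, or 45.6%. Among genes that rose it was present in 44 of 439, or 10.0%, and among genes not called in 1510 of 9713, or 15.5%. The share over all 11314 genes was 18.9%, and over all 32851 promoter windows 8.86%. In the 9058 genes with a single window the shares were 48.7% of those that fell, 8.02% of those that rose and 15.0% of those not called. With 1 letter more, CCGGAAGT, the shares were 28.4% of genes that fell, 2.96% of genes that rose and 6.33% of genes not called, against 8.47% of all. Median GC content of the windows was 60.0% for genes that fell and 60.7% for genes that rose and for genes not called. Letters of other housekeeping promoter factors did not follow the same order: CGCATGCG, the palindromic core of the NRF1 site, was in 3.18% of genes that fell, 7.74% of genes that rose and 4.09% of all, and AAGATGGC, of YY1, was in 4.04% of genes that fell, 4.10% of genes that rose and 4.94% of all. Of the 24 largest falls, 20 had a window, 15 of these held CCGGAAG and 6 held it 2 times or more.

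The share of genes that fell was higher with each further match. It was 6.25% of 9171 genes with no match, 22.9% of 1745 genes with 1 match, 45.0% of 340 genes with 2 and 62.1% of 58 genes with 3 or more. The share that rose ran the other way, at 4.31%, 2.35%, 0.882% and 0.0% in the same order. Median log2 fold changes were 0.04, -0.10, -0.26 and -0.46 in the GABPB1/GABPB2 line, and 0.12, -0.23, -0.69 and -1.01 in the GABPA line. These shares describe the windows, and no test was made of them.

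**Figure D3:**
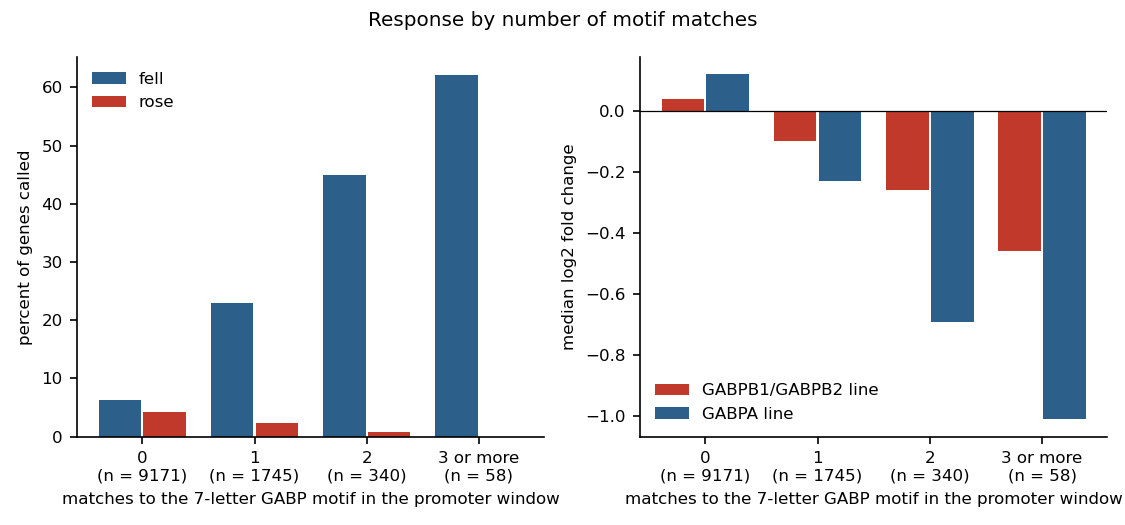
Left: percent of genes that fell and that rose after dTAG-13 in the GABPB1/GABPB2 line, by the number of CCGGAAG matches in the promoter window. Right: median log2 fold change of the same genes in the GABPB1/GABPB2 line and in the GABPA line. The share that fell is 6.25% with no match and 62.1% with 3 or more.

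The largest rises were smaller than the largest falls. Of the 14 described, 4 (Hsd17b7, Mvd, Dhcr7 and Scd1) encode enzymes of cholesterol synthesis or fatty acid desaturation. Outside that group, Zfp750, which encodes a zinc finger protein known in epidermal differentiation, had 16.1 and 14.6 CPM in dTAG-13 libraries, against 7.8 and 8.3 CPM in DMSO libraries (log2 fold change 0.94 ± 0.135). Chmp2a, an ESCRT-III subunit that shapes and cuts membrane necks, had 66.9 and 61.4 CPM in dTAG-13 libraries, against 36.6 and 32.2 CPM in DMSO libraries (log2 fold change 0.90 ± 0.0794, adjusted p = 4.72e-07). Csad, which makes the taurine precursor hypotaurine, had 34.5 and 34.1 CPM in dTAG-13 libraries, against 22.4 and 20.8 CPM in DMSO libraries (log2 fold change 0.66 ± 0.0895). The rises were chosen in the same way as the falls, without overlap between dTAG-13 and DMSO libraries. Zfp750 and Csad overlap Tbcd and Zfp740 on the other strand. Trp73, a p53 relative, had 9.48 and 7.42 CPM in dTAG-13 libraries, against 5.19 and 5.52 CPM in DMSO libraries (log2 fold change 0.67 ± 0.17), and its call was lost without dTAG-13 replicate 1 or without DMSO replicate 1. Brdt, Tmod2, Hmcn2, Zfp82 and Elmo3 had log2 fold changes between 0.68 in Elmo3 and 0.73 in Brdt, and all 5 except Tmod2 lost their call when 1 or more of the 4 libraries was left out.

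Genes of cholesterol synthesis rose almost throughout the pathway. Of 20 members tested 18 rose and none fell, against 3.53% of all genes, with a median log2 fold change of 0.54 against 0.01 over all genes. Fdft1, which makes squalene, had 180 and 165 CPM in dTAG-13 libraries, against 122 and 121 CPM in DMSO libraries (log2 fold change 0.51 ± 0.0659, adjusted p = 4.07e-05). Dhcr7, which makes cholesterol from its last precursor, had 103 and 84.7 CPM in dTAG-13 libraries, against 60.8 and 54.4 CPM in DMSO libraries (log2 fold change 0.70 ± 0.103, adjusted p = 0.000139). In both genes the dTAG-13 libraries were higher than the DMSO libraries, and dTAG-13 replicate 1 was the highest. The rises ran between 0.40 in Hmgcs1 and 0.75 in Hsd17b7, and Ebp, which makes an intermediate late in the pathway, was not called, at -0.08. The number of rises was 13 to 18 under the alternatives tried, the lowest without dTAG-13 replicate 1, and 17 without DMSO replicate 1. The same genes had a median log2 fold change of 0.76 in the GABPA line, where 19 rose and 1 fell, and 0.26 in the GABPB1 line, where 8 rose. For 1 of the 20 the response was higher here than in the GABPA line and for 3 it was lower, and no difference from the GABPB1 line was called.

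Genes of sterol uptake and its regulation moved less uniformly. Of 16 members 5 rose and 1 fell, or 31.2% and 6.25%, against 3.53% and 9.26% of all genes. Stard4, a sterol carrier, had 40.3 and 35.6 CPM in dTAG-13 libraries, against 25.9 and 24.1 CPM in DMSO libraries (log2 fold change 0.60 ± 0.0904). Insig1, which holds the sterol regulator SREBP in the endoplasmic reticulum, had 155 and 125 CPM in dTAG-13 libraries, against 101 and 98.7 CPM in DMSO libraries (log2 fold change 0.49 ± 0.114), and its call was lost without dTAG-13 replicate 1. Srebf2, the sterol-responsive transcription factor of the pathway, rose by 0.23. The only fall of the list, Nr1h2, encodes the nuclear receptor LXR beta, a sensor of oxysterols, and had 31.7 and 33.8 CPM in dTAG-13 libraries, against 83.6 and 75.4 CPM in DMSO libraries (log2 fold change -1.28 ± 0.0861, adjusted p = 1.71e-08). The LXR targets Abca1 and Abcg1 were not called, with log2 fold changes of -0.02 and 0.32. The number of rises in this list was 2 without dTAG-13 replicate 1 and 6 without DMSO replicate 1.

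In fatty acid synthesis 7 of 16 members rose, or 43.8% against 3.53% of all genes, and none fell, with a median log2 fold change of 0.26. The stearoyl-CoA desaturases, which introduce a double bond into fatty acids, were Scd1 with 198 and 174 CPM in dTAG-13 libraries, against 113 and 120 CPM in DMSO libraries (log2 fold change 0.67 ± 0.107) and Scd2 with 1050 and 958 CPM in dTAG-13 libraries, against 705 and 771 CPM in DMSO libraries (log2 fold change 0.44 ± 0.0848). Lpin1, a phosphatidate phosphatase, had 87.5 and 79.4 CPM in dTAG-13 libraries, against 58.6 and 59.7 CPM in DMSO libraries (log2 fold change 0.50 ± 0.0872). The groups did not overlap in any of the 3. Acly, Acaca, Fads2 and Acss2 rose by 0.27 to 0.39. The number of rises ranged from 3 without dTAG-13 replicate 1 to 10 in a fit of the GABPB1/GABPB2 and GABPB1 lines together, and was 5 without DMSO replicate 1.

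**Figure D4:**
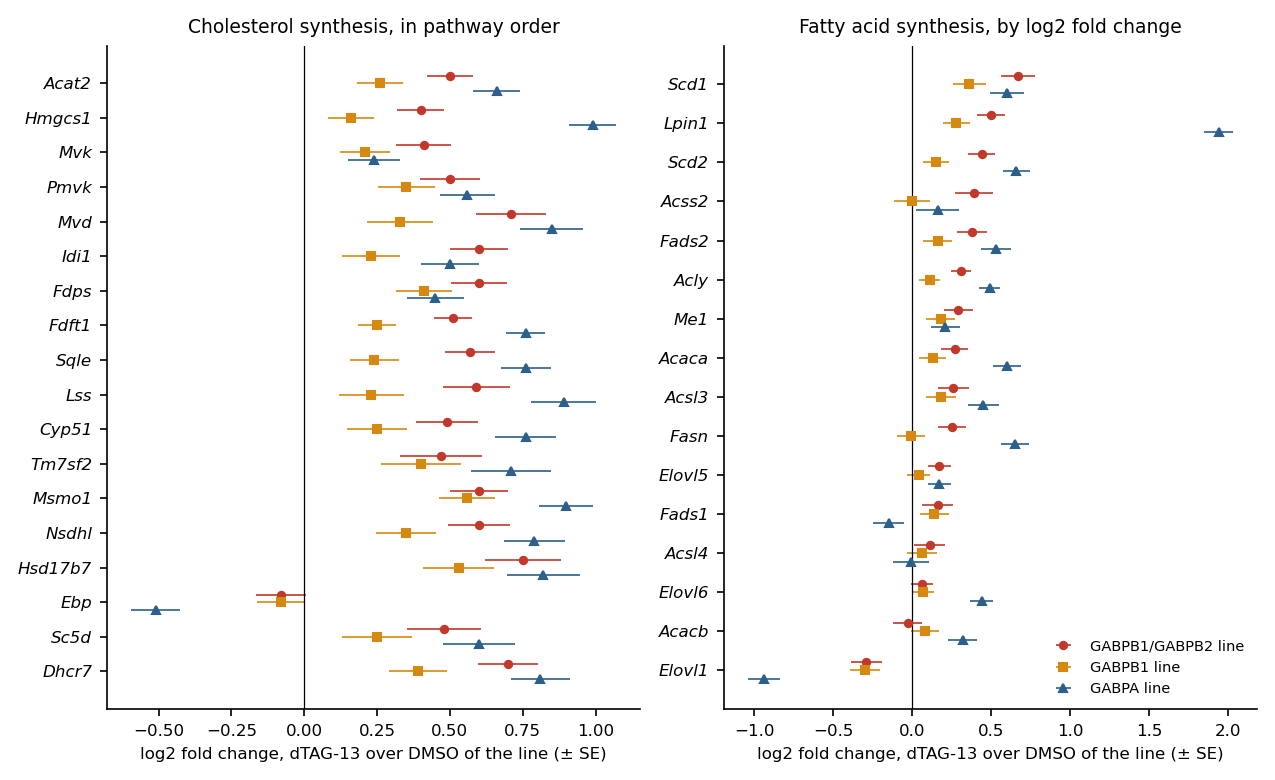
Log2 fold change of dTAG-13 over DMSO, with its standard error, for 18 of the 20 genes of cholesterol synthesis in pathway order and for those of fatty acid synthesis, in the GABPB1/GABPB2, GABPB1 and GABPA lines. In the GABPB1/GABPB2 line 17 of the 18 cholesterol genes shown and 7 of 16 fatty acid genes rose.

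In membrane traffic a few members of each complex moved and most did not. Of 10 exocyst genes 4 fell, or 40.0% against 9.26% of all genes, and none rose. Exoc3 and Exoc3l are described above, Exoc7 had 32.9 and 32.7 CPM in dTAG-13 libraries, against 42 and 38.6 CPM in DMSO libraries (log2 fold change -0.30 ± 0.0767), and Exoc5 fell, at -0.37. The other 6 lay between -0.03 in Exoc1 and 0.25 in Exoc6. The falls numbered 3 when DMSO replicate 1 was left out and 2 without either dTAG-13 replicate. Of 23 genes of the ESCRT machinery, which sorts cargo into endosomes and cuts membranes, 5 fell and 3 rose. Tsg101, the ubiquitin-binding subunit of ESCRT-I, had 14.5 and 14.8 CPM in dTAG-13 libraries, against 42.5 and 40.7 CPM in DMSO libraries (log2 fold change -1.50 ± 0.0921, adjusted p = 5.96e-09). Vps25 and Snf8 of ESCRT-II fell, at -0.55 and -0.55. The rises were Chmp2a, described above, Chmp3 at 0.26 and Chmp2b at 0.29, and the last 2 lost their call without DMSO replicate 1 and without either dTAG-13 replicate.

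Among genes for mitochondrial proteins the share of falls differed from list to list. Of 78 mitochondrial ribosome genes 17 fell and 1 rose, or 21.8% and 1.28%, against 9.26% and 3.53% of all genes, with a median log2 fold change of -0.05. The falls numbered 13 without DMSO replicate 1, and 10 and 11 without dTAG-13 replicate 1 and replicate 2. Mrpl27 had 5.7 and 5.87 CPM in dTAG-13 libraries, against 29.3 and 26 CPM in DMSO libraries (log2 fold change -2.26 ± 0.121). Mrpl53 had 4.03 and 5.33 CPM in dTAG-13 libraries, against 16.8 and 16.3 CPM in DMSO libraries (log2 fold change -1.84 ± 0.123), and Mrps21 had 6.38 and 6.05 CPM in dTAG-13 libraries, against 23.1 and 17 CPM in DMSO libraries (log2 fold change -1.70 ± 0.139). Both dTAG-13 libraries were below both DMSO libraries in each. Of 33 genes for protein import 9 fell, or 27.3%, and none rose, and the falls numbered 8 without DMSO replicate 1. Timm23, the channel of the inner membrane, had 60.9 and 62.8 CPM in dTAG-13 libraries, against 137 and 131 CPM in DMSO libraries (log2 fold change -1.12 ± 0.0628, adjusted p = 1.84e-09). Pmpca, a subunit of the peptidase that removes import signals, had 91.8 and 90.4 CPM in dTAG-13 libraries, against 166 and 166 CPM in DMSO libraries (log2 fold change -0.87 ± 0.0592), and Mtx2, of the outer membrane sorting machinery, had 8.54 and 8.62 CPM in dTAG-13 libraries, against 20.4 and 20.4 CPM in DMSO libraries (log2 fold change -1.25 ± 0.116). The DMSO libraries agreed within a few percent for these 3.

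Among 29 genes for the expression of mitochondrial DNA 6 fell, or 20.7% against 9.26% of all genes, with 4 without DMSO replicate 1 and 3 without dTAG-13 replicate 1, and none rose. Elac2, which cuts the 3′ ends of mitochondrial tRNAs, had 74.3 and 71.8 CPM in dTAG-13 libraries, against 103 and 109 CPM in DMSO libraries (log2 fold change -0.53 ± 0.0621). Fastkd5, a mitochondrial RNA processing factor, fell, at -0.88, and Twnk, the mitochondrial helicase, at -0.45. Tfam, which packages mitochondrial DNA and is a textbook GABP target, had 63.9 and 65.9 CPM in dTAG-13 libraries, against 75 and 76.3 CPM in DMSO libraries, a fall (log2 fold change -0.22, adjusted p = 0.0424). Its response in the GABPA line was -0.96. The 20 genes that charge mitochondrial tRNAs gave 4 falls and 1 rise. Rars2, Cars2 and Hars2 fell, at -0.74, -0.73 and -0.59, and the fourth, Lars2, had 227 and 198 CPM in dTAG-13 libraries, against 533 and 218 CPM in DMSO libraries, so that DMSO replicate 1 alone was high and DMSO replicate 2 lay within the dTAG-13 values. The rise was Gatc, at 0.35, and its call was lost in the 4 libraries alone and without DMSO replicate 1.

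Counts of respiratory chain genes depended on which control library was kept. Of 74 subunit genes 8 fell and 1 rose, or 10.8% and 1.35%, against 9.26% and 3.53% of all genes, so the share of falls was near that of all genes. Atp5j of the ATP synthase had 67.5 and 68.8 CPM in dTAG-13 libraries, against 104 and 88.7 CPM in DMSO libraries (log2 fold change -0.50 ± 0.0833), Ndufa13 of complex I had 29.2 and 29 CPM in dTAG-13 libraries, against 52.3 and 39.4 CPM in DMSO libraries (log2 fold change -0.66 ± 0.111), and Ndufb9 of complex I had 47.7 and 48.8 CPM in dTAG-13 libraries, against 68.6 and 63.1 CPM in DMSO libraries (log2 fold change -0.45 ± 0.0773). In each of them DMSO replicate 1 was the highest of the 4 libraries. Without DMSO replicate 1 the list had 5 falls and 8 rises, and without DMSO replicate 2 it had 19 falls and 2 rises. Of 47 assembly factors 13 fell and 1 rose, with 11 falls without DMSO replicate 1 and 8 without dTAG-13 replicate 1. Sco1, a copper chaperone of cytochrome oxidase, had 16.2 and 16.9 CPM in dTAG-13 libraries, against 34.9 and 38.6 CPM in DMSO libraries (log2 fold change -1.15 ± 0.0887, adjusted p = 9.53e-08). Timmdc1, an assembly factor of complex I, fell, at -1.44, and Cox16, an assembly factor of cytochrome oxidase, at -1.33. The share of assembly factors that fell was 27.7%, against 9.26% of all genes. Among proteins encoded by mitochondrial DNA, mt-Atp8 had 43.9 and 33.9 CPM in dTAG-13 libraries, against 89.7 and 56 CPM in DMSO libraries (log2 fold change -0.91 ± 0.175). In length-corrected TPM its values were closer, 5250 and 5080 in dTAG-13 libraries against 5630 and 6270 in DMSO libraries. The gene is short (chrM:7766-7969) and overlaps mt-Atp6 on the same strand. The part of the shorter fragments of DMSO replicate 1 in its count was not tested. Of the 13 genes, mt-Atp8 alone fell, or 7.69% against 9.26% of all genes, and none rose. Without DMSO replicate 1 the count was 6 falls, and without DMSO replicate 2 it was 4 rises and 1 fall.

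Many genes of ribosome assembly fell. Of 89 genes 30 fell and 1 rose, or 33.7% falling against 9.26% of all genes, and 25 fell without DMSO replicate 1, and 20 and 19 without dTAG-13 replicate 1 and replicate 2. The median log2 fold change of the list was -0.11. Wdr3, a part of the machinery that makes the small subunit, had 38 and 34.8 CPM in dTAG-13 libraries, against 99.6 and 110 CPM in DMSO libraries (log2 fold change -1.52 ± 0.0781, adjusted p = 7.26e-10). Ebna1bp2, which takes part in making the large subunit, had 40.1 and 42 CPM in dTAG-13 libraries, against 110 and 99.5 CPM in DMSO libraries (log2 fold change -1.36 ± 0.071, adjusted p = 9.1e-10). Rsl24d1, likewise of the large subunit, had 47.6 and 49.2 CPM in dTAG-13 libraries, against 102 and 109 CPM in DMSO libraries (log2 fold change -1.12 ± 0.0761). Both dTAG-13 libraries of these 3 genes lay below both DMSO libraries, and replicates of a group agreed closely. The only rise was Dkc1, the pseudouridine synthase, at 0.24, which lost its call without DMSO replicate 1. The cytosolic ribosomal proteins themselves, 78 genes, gave 1 fall and 3 rises, but 19 rises without DMSO replicate 1 and 16 falls without DMSO replicate 2, so their direction depended on which control library was kept. Rpsa had 2380 and 2400 CPM in dTAG-13 libraries, against 2020 and 1900 CPM in DMSO libraries (log2 fold change 0.29 ± 0.0452), and Rps27 had 199 and 203 CPM in dTAG-13 libraries, against 318 and 269 CPM in DMSO libraries (log2 fold change -0.54 ± 0.0927). The 3 rises were 3.85% of the cytosolic ribosomal protein genes, near the 3.53% of all genes, and the fall 1.28%. Ribosomal protein genes have near-identical pseudogene copies, and their counts are uncertain for that reason.

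In RNA processing, large changes in 1 or 2 members stood beside complexes that were otherwise not called. Of 12 RNA exosome genes 2 fell, Exosc3, described above, and Exosc4, with 14.4 and 15.1 CPM in dTAG-13 libraries, against 34 and 25.4 CPM in DMSO libraries (log2 fold change -1.02 ± 0.12). The 10 others lay between -0.12 in Dis3 and 0.14 in Exosc9. The 2 falls were 16.7% of the exosome genes, against 9.26% of all genes. Of 44 genes of tRNA modification and processing 7 fell and 2 rose, with 5 falls without DMSO replicate 1 and 4 without dTAG-13 replicate 1. Beside Kti12, Elp2, a subunit of Elongator, had 88.3 and 90.3 CPM in dTAG-13 libraries, against 145 and 151 CPM in DMSO libraries (log2 fold change -0.73 ± 0.0633, adjusted p = 3.82e-07). Tprkb, of the complex that adds a threonylcarbamoyl group to tRNA, had 6.48 and 8.62 CPM in dTAG-13 libraries, against 15.2 and 16.2 CPM in DMSO libraries (log2 fold change -1.07 ± 0.148). Groups did not overlap in either. Of the tRNA list 15.9% fell and 4.55% rose, against 9.26% and 3.53% of all genes. The rises, Elp3 and Mto1, had log2 fold changes of 0.18 and 0.31 and lost their calls when any 1 of the 4 libraries was left out.

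In the transcription machinery, 5 of 31 genes of pausing and elongation fell, against 3 without either dTAG-13 replicate, and none rose. Eaf1, of the super elongation complex, had 35.9 and 38.6 CPM in dTAG-13 libraries, against 96.9 and 102 CPM in DMSO libraries (log2 fold change -1.42 ± 0.0734, adjusted p = 8.04e-10). Ctr9, of the PAF complex, had 55.7 and 53.5 CPM in dTAG-13 libraries, against 92.3 and 102 CPM in DMSO libraries (log2 fold change -0.83 ± 0.0711). Supt16, of the histone chaperone FACT, had 254 and 255 CPM in dTAG-13 libraries, against 391 and 430 CPM in DMSO libraries (log2 fold change -0.69 ± 0.0608). All dTAG-13 values lay below all DMSO values. The other subunit of FACT, Ssrp1, and the elongation factor Supt6 fell, at -0.21 and -0.20. Of 10 TFIIH genes, the helicase Ercc3 fell, at -0.86, with 35.1 and 37.2 CPM in dTAG-13 libraries, against 65.3 and 65.6 CPM in DMSO libraries, and Ccnh fell, at -0.42, while Ercc2 rose by 0.27. Ccnh and Ercc2 both lost their calls without DMSO replicate 2 and without dTAG-13 replicate 1. Of 17 Integrator genes Nabp2 and Ints11 fell, at -0.43 and -0.37, and Nabp2 lost its call without dTAG-13 replicate 2. Of 19 other ETS family genes, Etv3, described above, Etv4 and Elf2 fell, the last 2 at -0.35 and -0.31, and both lost their call without either dTAG-13 replicate.

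Of 40 proteasome genes 5 fell and none rose, a share of falls of 12.5% near the 9.26% of all genes and a median log2 fold change of 0.01, with 9 falls without DMSO replicate 2 and 3 rises without DMSO replicate 1. Pomp, the chaperone of proteasome assembly, had 34 and 36.6 CPM in dTAG-13 libraries, against 96.7 and 91.8 CPM in DMSO libraries (log2 fold change -1.42 ± 0.0839, adjusted p = 3.94e-09). The core subunit genes Psmb4 and Psma6 had 115 and 124 CPM and 97.2 and 103 CPM in dTAG-13 libraries, against 226 and 200 CPM and 153 and 160 CPM in DMSO libraries. Their log2 fold changes were -0.83 ± 0.0675 and -0.64 ± 0.0702. None of the 3 overlapped between the groups. Among 15 genes of antigen peptide supply 4 fell, against 2 without dTAG-13 replicate 1, and 1 rose. Psmb10, an immunoproteasome subunit, had 2.36 and 2.69 CPM in dTAG-13 libraries, against 10.8 and 9.59 CPM in DMSO libraries (log2 fold change -2.02 ± 0.172). H2-D1 and H2-K1, both heavy chains of MHC class I, differed in direction, with H2-D1 falling, at -0.66, and H2-K1 rising, at 0.44. The peptide transporters Tap1 and Tap2 were not called, at 0.47 and 0.43. Of the antigen supply list 26.7% fell and 6.67% rose, against 9.26% and 3.53% of all genes. H2-D1 and H2-K1 are members of a multigene family, so reads may be divided between them in error.

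Among cell cycle genes, 11 of 51 DNA replication genes fell and 1 rose, with a median log2 fold change of -0.14 and 17 falls without DMSO replicate 1. Rfc2, of the clamp loader, had 48.1 and 52.1 CPM in dTAG-13 libraries, against 105 and 101 CPM in DMSO libraries (log2 fold change -1.04 ± 0.0693, adjusted p = 1.59e-08). Tyms, which makes thymidylate, had 29 and 29.7 CPM in dTAG-13 libraries, against 52.5 and 56.4 CPM in DMSO libraries (log2 fold change -0.89 ± 0.0747). Rfc3, another subunit of the clamp loader, had 15.1 and 17.4 CPM in dTAG-13 libraries, against 29.5 and 30.3 CPM in DMSO libraries (log2 fold change -0.88 ± 0.0893). Their dTAG-13 values all lay below their DMSO values. Of the replication genes 21.6% fell and 1.96% rose, against 9.26% and 3.53% of all genes. The rise was Pold2, at 0.28, lost without either dTAG-13 replicate. Of 36 genes of G2 and mitosis 1 fell, Mad2l1, at -0.25, or 2.78% against 9.26% of all genes, and none rose.

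Among 32 p53 target genes 12 rose, or 37.5% against 3.53% of all genes, and none fell. The rises were small and depended on the fit. Ephx1, an epoxide hydrolase, had 45.1 and 43.5 CPM in dTAG-13 libraries, against 33 and 30.3 CPM in DMSO libraries (log2 fold change 0.48 ± 0.0786, adjusted p = 0.000368). Btg2, an anti-proliferative gene, had 54.9 and 55.7 CPM in dTAG-13 libraries, against 39.7 and 40.3 CPM in DMSO libraries (log2 fold change 0.47 ± 0.0793, adjusted p = 0.000545). Zfp365 had 41.5 and 38 CPM in dTAG-13 libraries, against 28.9 and 28.6 CPM in DMSO libraries (log2 fold change 0.47 ± 0.0912), and its call was lost without dTAG-13 replicate 1. The groups did not overlap in these 3. The number of rises was 8 without DMSO replicate 1, 3 or 5 without one or the other dTAG-13 library and 5 in the 4 libraries alone. Cdkn1a and Mdm2, the best-known targets, were not called, with log2 fold changes of 0.10 and 0.19. In the GABPA line 29 of the 32 rose, with a median log2 fold change of 1.46 against 0.20 here, and for 25 of the 32 the response was lower here by the test of the difference.

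Of 31 genes of the integrated stress response 7 fell and 2 rose, or 22.6% and 6.45%, against 9.26% and 3.53% of all genes, with a median log2 fold change of -0.17 against 0.01 over all genes. The falls numbered 4 without DMSO replicate 1, and 4 and 1 without dTAG-13 replicate 1 and replicate 2. Stc2, a secreted glycoprotein, had 5.6 and 5.75 CPM in dTAG-13 libraries, against 11 and 9.64 CPM in DMSO libraries (log2 fold change -0.87 ± 0.141). Aldh18a1, of proline synthesis, and Trib3, a pseudokinase, fell, at -0.27 and -0.31 and both lost their calls without dTAG-13 replicate 2. The rises were Ddit4, with 60.7 and 54.1 CPM in dTAG-13 libraries, against 47.5 and 36.6 CPM in DMSO libraries (log2 fold change 0.44 ± 0.116), and Sesn2, at 0.27, both of which also restrain mTORC1. Of 28 genes of mTORC1 control, Wdr24, of the GATOR2 complex, had 14.9 and 17.7 CPM in dTAG-13 libraries, against 32.2 and 32.4 CPM in DMSO libraries (log2 fold change -0.99 ± 0.095, adjusted p = 1.25e-06). Tsc2 and Sec13 fell, at -0.39 and -0.24, and Ddit4l, a relative of Ddit4, rose by 0.63. In the mTORC1 list 10.7% of genes fell, near the 9.26% of all genes, and 10.7% rose, against 3.53%. None of the 3 rises of that list was called without dTAG-13 replicate 1. Of 20 gene IDs of glycolysis, Txnip and Aldoc rose by 0.44 and 0.38 and the glucose transporter gene Slc2a3 fell, at -0.29. Of 13 heat shock genes Bag3 rose, at 0.40. The share that rose was 10.0% for glycolysis and 7.69% for heat shock, against 3.53% of all genes. Aldoc lost its call when any 1 of the 4 libraries was left out, and Bag3 without dTAG-13 replicate 1 and without DMSO replicate 1.

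Genes of naive pluripotency were called about as often as all genes. Of 24 genes 2 fell and 1 rose, or 8.33% and 4.17%, against 9.26% and 3.53% of all genes, with a median log2 fold change of -0.01. Nanog had 510 and 487 CPM in dTAG-13 libraries, against 542 and 617 CPM in DMSO libraries (log2 fold change -0.22 ± 0.0661, adjusted p = 0.0397). Nr0b1 fell, at -0.23, and Gbx2 rose by 0.39. Neither fall was called in the 4 libraries alone or without either dTAG-13 replicate. Pou5f1 and Sox2, which were not called, had log2 fold changes of 0.01 and 0.02. Of 14 formative and primed genes Lef1, a partner of beta-catenin, rose by 0.40 and lost its call without DMSO replicate 1 and without either dTAG-13 replicate. Among 18 lineage genes Sox1 fell, with 1.96 and 1.5 CPM in dTAG-13 libraries, against 3.38 and 2.73 CPM in DMSO libraries, and among feeder fibroblast genes Thy1 fell, with 3 and 2.51 CPM in dTAG-13 libraries, against 5.19 and 3.83 CPM in DMSO libraries, and both were lost without DMSO replicate 1 and without either dTAG-13 replicate. The share that rose was 7.14% of the formative and primed genes, against 3.53% of all genes. The share that fell was 5.56% of the lineage genes and 12.5% of 8 feeder fibroblast genes, against 9.26% of all genes. None of 9 genes of the 2-cell-like state was called. Of 20 immediate early genes 1 rose and 1 fell, or 5.0% each, against 3.53% and 9.26% of all genes. The fall was Myc, which had 16.5 and 14.9 CPM in dTAG-13 libraries, against 21 and 20.7 CPM in DMSO libraries (log2 fold change -0.41 ± 0.112), and its call was lost without DMSO replicate 1 and without either dTAG-13 replicate.

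**Figure D5:**
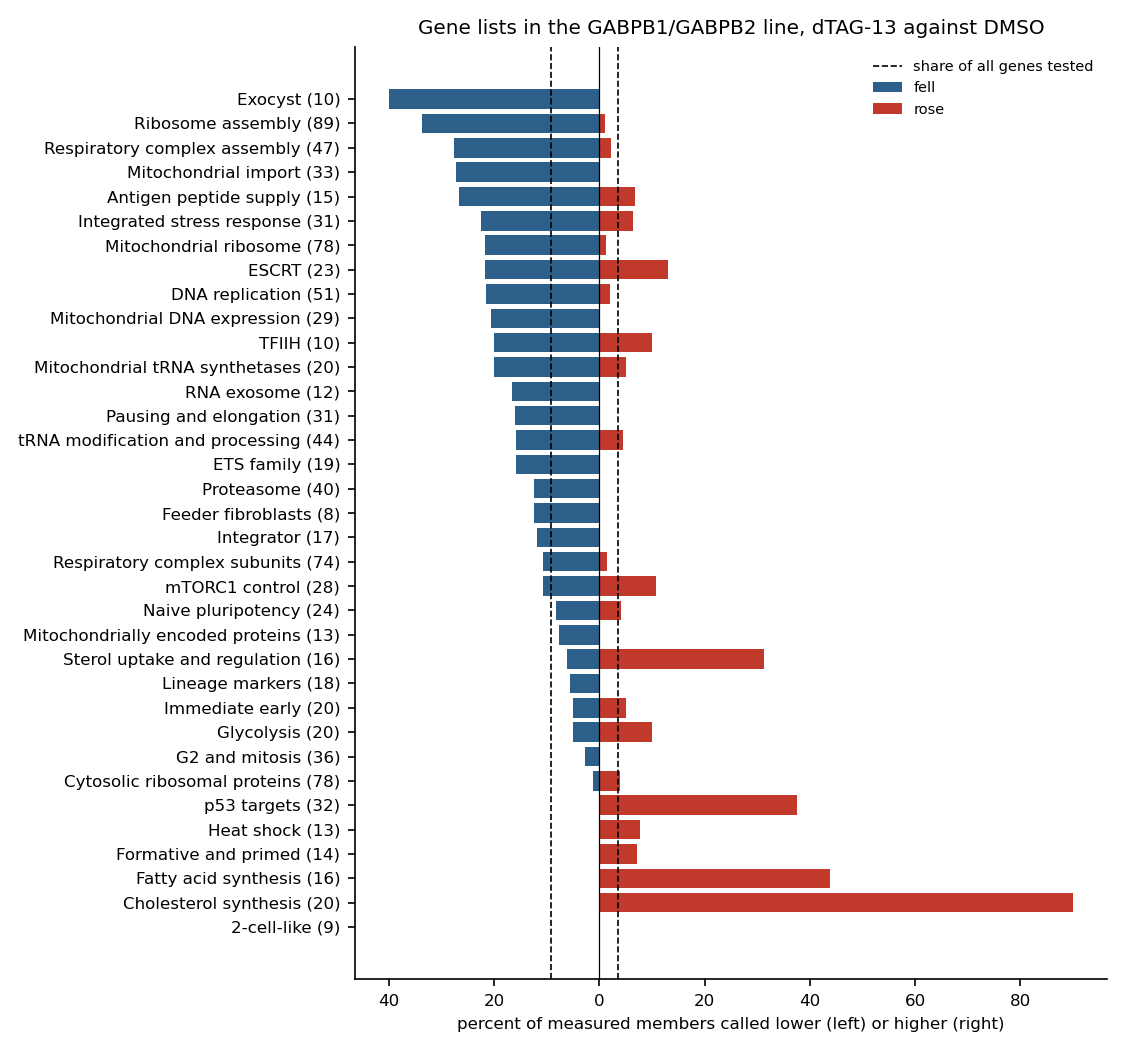
Percent of the tested members of each gene list that fell (left) and rose (right) after dTAG-13 in the GABPB1/GABPB2 line, with dashed lines at the shares of all genes, 9.26% and 3.53%. Among the lists drawn, which have at least 8 genes, cholesterol synthesis has the highest share of rises (18 of 20) and the exocyst that of falls (4 of 10), and ribosome assembly has 30 falls among 89 genes.

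The response was set beside that of the GABPA line at the same time and dose, each line against its own DMSO libraries. Many more genes were called in the GABPA line, with 3589 that fell, or 21.9%, and 4027 that rose, or 24.6%. Of the 1519 genes that fell in the GABPB1/GABPB2 line, 1385 also fell in the GABPA line. This is 91.2% of these falls and 38.6% of the falls in the GABPA line. Of the 578 that rose, 476 also rose in the GABPA line, or 82.4% of these rises and 11.8% of the GABPA rises. In opposite directions, 19 genes fell here and rose there, and 7 rose here and fell there. Over the 1519 falls the median log2 fold change was -0.60 in the GABPB1/GABPB2 line and -1.12 in the GABPA line, and over the 578 rises it was 0.41 and 0.66. These genes were chosen by their call in the GABPB1/GABPB2 line, so the medians are a description. Across 9711 genes the 2 sets of log2 fold changes had a Pearson r of 0.736 and a Spearman rho of 0.735, with no test, since genes are not independent replicates.

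The difference between the 2 responses was tested gene by gene as an interaction of line and treatment in the same fit. The response was higher in the GABPB1/GABPB2 line than in the GABPA line for 1754 genes, or 10.7%, and lower for 1648, or 10.1%. Of the 1519 falls 854 were called less negative here than in the GABPA line and 51 more negative. Among the most certain higher responses, the TFIIH helicase gene Ercc3 had a log2 fold change of -0.86 here and -4.26 in the GABPA line (difference 3.40 ± 0.126, adjusted p = 4.76e-11). Nip7, of large-subunit assembly, had -0.71 here and -3.26 in the GABPA line (difference 2.55 ± 0.0908, adjusted p = 4.76e-11). Wdr24 had -0.99 here and -4.68 there (difference 3.69 ± 0.181), and Shq1, an assembly factor of box H/ACA ribonucleoproteins, -0.99 here and -4.43 there (difference 3.44 ± 0.179). Psmb4 and Ebna1bp2 differed by 2.09 and 2.24. All 6 of these genes were more negative in the GABPA line. Among the lower responses, Ddit4 rose by 0.44 here and 3.20 in the GABPA line (difference -2.76 ± 0.163, adjusted p = 1.22e-08). Btg2, Zfp365, Ephx1 and Plk2 differed by -1.82, -2.10, -1.94 and -2.23, and Mdm2, not called here, by -1.76. Btg2, Zfp365, Ephx1, Plk2 and Mdm2 are members of the p53 target list. The 1648 lower responses were 1089 without dTAG-13 replicate 1 and 1057 without dTAG-13 replicate 2.

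Set beside the GABPB1 line, the GABPB1/GABPB2 line had more calls in each direction in the fit of all 12 libraries. For rises this depended on the fit: with the 4 libraries of the GABPB1/GABPB2 line alone, 222 genes rose. The 2 are separate lines, each read against its own DMSO libraries. In the GABPB1 line 896 genes fell, or 5.46%, and 210 rose, or 1.28%. Of the 1519 falls 719 also fell in the GABPB1 line, which is 47.3% of them and 80.2% of the 896, and of the 578 rises 105 also rose there, which is 18.2% of them, out of 210 in that line. The median log2 fold change over the 1519 falls was -0.60 in the GABPB1/GABPB2 line and -0.32 in the GABPB1 line, and over the 578 rises it was 0.41 and 0.21. These genes were chosen by their call in the GABPB1/GABPB2 line, which favours larger values there, so the medians are a description. Over all genes tested, 49.9% were more negative here than in the GABPB1 line. By the test of the difference, the response was lower in the GABPB1/GABPB2 line for 152 genes, or 0.927%, and higher for 14, or 0.0854%. Of the 1519 falls, chosen in the way described, 149 were called more negative here and 1 less negative. Usp11 had a log2 fold change of -3.57 here and -1.65 in the GABPB1 line (difference -1.92 ± 0.138, adjusted p = 1.05e-06). Kti12 had -3.11 here and -0.87 there (difference -2.24 ± 0.158, adjusted p = 1.05e-06), and Exosc3 had -3.12 here and -1.25 there (difference -1.87 ± 0.147, adjusted p = 2.32e-06). Exoc3, Nek9, a mitotic kinase, and Ppid, a peptidyl-prolyl isomerase, differed by -1.69, -1.41 and -1.15. All 6 of these genes fell in the GABPB1/GABPB2 line.

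The higher responses were few, and the 6 named here were of genes that fell in the GABPB1 line. Bnip3, a mitophagy receptor, had a log2 fold change of 0.21 here and -0.78 in the GABPB1 line (difference 1.00 ± 0.184, adjusted p = 0.00964). Egln3, a prolyl hydroxylase of hypoxia-inducible factor, had 0.43 here and -0.71 there (difference 1.14 ± 0.194). Ndrg1 and the glycolysis regulator gene Pfkfb3 differed by 1.08 and 1.03, Lef1 by 1.16 and Igfbp4 by 0.87. Bnip3, Egln3, Ndrg1 and Pfkfb3 are known as genes that respond to hypoxia. The count of 14 was 3 without the first dTAG-13 library, 7 without the second, 29 without DMSO replicate 1 and 49 without DMSO replicate 2, and Bnip3, Ndrg1 and Pfkfb3 each lost their call without dTAG-13 replicate 1, Egln3 without dTAG-13 replicate 2 and Igfbp4 without DMSO replicate 2, without either dTAG-13 replicate, as well as when the GABPB1/GABPB2 and GABPB1 lines were fitted without the GABPA line. The 152 lower responses were 84 without dTAG-13 replicate 1 and 284 without DMSO replicate 2.

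Newly made RNA was not analysed here for the GABPB1/GABPB2 line, and that of the GABPA line, read by SLAM-seq, was used only to describe the same genes. SLAM-seq labels new RNA with 4-thiouridine and counts reads with T-to-C conversions. Of the genes that fell in the GABPB1/GABPB2 line, 1380 were measured by SLAM-seq in the GABPA line. Their median log2 ratio of dTAG-13 to DMSO there was -0.42 after 1 h and -1.11 after 12 h, with 80.1% and 90.0% of them below 0. Genes that rose had medians of 0.13 and 0.53 over 532 genes. Over all 12609 genes measured in both assays the medians were 0.01 and 0.02.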

How the data were processed

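Of 92 samples, the 12 RNA-seq libraries at 12 h were analysed (3 lines, 2 dTAG-13 and 2 DMSO libraries each), with 4 groups of SLAM-seq libraries of the GABPA line (1 h and 12 h) for description. Groups came from the labels, and other samples were not used here. The deposited RNA-seq tables hold expected counts per gene and TPM values, made by the authors with RSEM per the file headers. The submitters' processing notes name RSEM 1.3.1, STAR 2.7.11a, Trim Galore 0.6.7 and cutadapt 3.5 for these samples, beside tools of other assays, and the build mm39. The deposited SLAM-seq tables give, per the file headers, the converted-read count (T-to-C) for each gene interval. The handling of strand and of overlapping genes was not given in the sources used here.

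Expected counts were rounded to whole numbers. All 12 libraries were fitted with edgeR 4.0.16 (R 4.3.3): a mean per group, TMM scaling, genes kept by filterByExpr (minimum count 10, total 15), the quasi-likelihood test and Benjamini-Hochberg adjustment over 16396 genes, with calls at an adjusted p under 0.05. The common biological coefficient of variation was 0.0608. Standard errors were derived from the log2 fold change and its F statistic. CPM values used TMM library sizes, at a depth of 16.0 to 32.1 M counts per library. SLAM-seq values are differences of mean log2 CPM of converted reads with a prior count of 2 and no test. Alternatives were DESeq2 1.42.0, its size factors, 2 other filters, other sets of libraries, limma 3.58.1 with sample weights, a replicate block and leaving out each library. Scripts were checked on simulated data.

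Named genes were the 3 subunits, the 24 largest falls and 16 largest rises called without overlap at a mean log2 CPM of at least 3 in either group, up to 3 called members of each list and direction with the smallest p, and, for each difference between lines, the 6 most certain genes in each direction. IDs with no symbol, predicted genes and pseudogene-like symbols were left out, and some genes that met these rules, or belong to the lists, are not reported here. Other members named to complete a count, a range or a pathway were chosen after their values were seen. The members and gene lists were chosen with earlier results of these data known. Gene symbols were found for 52029 of 56953 IDs in a table of Ensembl names, gene coordinates from mm39 intervals, and promoter windows from RefSeq GRCm38.p6, matched by symbol.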

Additional observations from a re-analysis of the deposited data

Results flagged for a closer look

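The responses of the 3 lines to dTAG-13 differed by the test of the difference itself (an interaction of line and treatment in edgeR's quasi-likelihood test), each line against its own DMSO libraries. The response was higher in the GABPB1/GABPB2 line than in the GABPA line for 1754 genes and lower for 1648. Among the most certain of these, the log2 difference was 2.55 for Nip7, 3.40 for Ercc3, 2.09 for Psmb4, 2.24 for Ebna1bp2, 3.69 for Wdr24 and 3.44 for Shq1. In the other direction it was -2.76 for Ddit4, -1.82 for Btg2, -2.10 for Zfp365, -1.94 for Ephx1, -2.23 for Plk2 and -1.76 for Mdm2.

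Against the GABPB1 line, the response was higher in the GABPB1/GABPB2 line for 14 genes and lower for 152. The log2 difference was -1.92 for Usp11, -2.24 for Kti12, -1.87 for Exosc3, -1.15 for Ppid, -1.41 for Nek9 and -1.69 for Exoc3. In the other direction it was 1.16 for Lef1, 1.14 for Egln3, 1.08 for Ndrg1, 1.00 for Bnip3, 1.03 for Pfkfb3 and 0.87 for Igfbp4. The lines also differ in their libraries: the DMSO groups of the GABPB1/GABPB2 line had fragment lengths of 230 and 267 bases by the measure given above, and its DMSO replicate 1 was the only one of the 12 RNA-seq libraries with over 10% of genes at a fractional count (11.6%). The part of these library differences in the differences between lines was not tested.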

How the results depend on the processing

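Under the alternatives tried, no call of a named gene or difference changed sign. Of 1755 recomputed values for 147 named genes, 1578 kept their direction and their side of the threshold, 175 lost the call and 2 gained it. Of 252 values for 24 named differences between lines, 243 kept both and 9 lost the call. The number of genes that rose was 222 in the 4 libraries of the line alone, 280 with limma-voom sample weights and 192 to 809 on leaving out 1 library, against 578. The number that fell was 970 to 1742 on leaving out 1 library, against 1519. With DESeq2 size factors in edgeR, 699 rose and 1425 fell, a share of falls of 67.1% against 72.4%. Responses higher than in the GABPA line numbered 1574 to 2312 on leaving out 1 library, against 1754, and lower ones 1057 to 1580, against 1648. Responses higher than in the GABPB1 line numbered 59 with no low-count filter and 3 to 49 on leaving out 1 library, against 14, and lower ones 263 with no low-count filter and 84 to 284 on leaving out 1 library, against 152. In a fit that leaves out 1 library of a group of 2, the single library left is assumed to vary like the other groups. The cause of these changes was not tested.

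Replicate numbers are shared between groups, but the labels do not say what a number marks. The deviations of same-numbered dTAG-13 and DMSO libraries correlated at 0.129 in the GABPB1/GABPB2 line, 0.0579 in the GABPB1 line and -0.0742 in the GABPA line over 9415 genes. With 2 libraries a group, these values cannot show whether same-numbered libraries share a batch. The numbers were therefore treated as names of samples only. With a replicate block in each line, 552 genes rose and 1499 fell, 1731 responses were higher and 1608 lower than in the GABPA line, and 13 were higher and 133 lower than in the GABPB1 line. Among the named genes the block ended the calls of Chmp2b, Elp3, Gatc, Dkc1, Ercc2 and Nanog, and the call of the difference of Igfbp4 from the GABPB1 line (adjusted p = 0.058). With 2 libraries a group, depth and the number of libraries limit small changes: a call lost in an alternative does not show that a gene did not change, and a gene not called is not shown to be unchanged.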
